A study of Homo sapiens with 6 samples.

Results

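The mitochondrial ribosomal protein genes are the nuclear genes whose symbols consist of MRPL or MRPS, a number and, for some, a final letter. That rule was applied to the gene symbols of the deposited table and selected 78 of 19792 genes. These were 49 genes named for the large subunit (MRPL) and 29 named for the small subunit (MRPS). A further 4 symbols begin in the same way and were left out, namely, by their symbols, the pseudogenes MRPS31P5, MRPL45P2 and MRPL42P5 and the divergent transcript MRPS30-DT. All 78 members matched a protein-coding gene of the GENCODE 44 annotation directly, and that annotation holds no other protein-coding gene whose symbol meets the rule.

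The RNA came from BT-549 cells, an established triple-negative breast cancer line, that carry a DOX-inducible shRNA against WDR5 (BT-549/tet-WDR5shRNA) and were selected with puromycin. WDR5 is a core subunit of the COMPASS complexes that methylate histone H3 at lysine 4. Libraries were made from 3 cultures given 0.1% DMSO as vehicle and from 3 cultures given 500 ng/ml doxycycline (DOX), which switches on the shRNA. By the study's supplement, treatment lasted 7 days. All 6 libraries carry the same inducible construct, so DOX itself and WDR5 silencing cannot be told apart in them. The values used here are the authors' mean normalized counts, which pool all 6 libraries in a single number per gene. No member therefore has a value per sample, a spread between replicates or a difference between DOX and vehicle in what follows, and no test was run. In such bulk RNA, fewer cells that express a gene and less RNA per cell cannot be told apart. WDR5 had a pooled mean of 1143, which checks no label because both groups enter it. Of the marker genes of the line, VIM (47782) and FN1 (30461), which mark mesenchymal cells, had high means, and the estrogen receptor ESR1 (0.790), the progesterone receptor PGR (0.801) and the epithelial adhesion gene EPCAM (1.30) had means near 0. Other luminal and epithelial markers of the same list were not near 0, with ERBB2 at 1221, KRT18 at 435 and GATA3 at 362. CDH1 (59.6), KRT8 (57.3) and KRT19 (17.7) lay between.

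The mitochondrial ribosome translates the few messages encoded by mitochondrial DNA, which specify core subunits of the respiratory chain. Its rRNAs are transcribed inside the organelle, whereas every one of its proteins is encoded in the nucleus, made in the cytosol and imported. Some of these proteins have counterparts in bacterial ribosomes, and others were added in the mitochondrial lineage and occur in no bacterial ribosome.

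Promoter sequences were read for 69 of the 78 members from RefSeq on GRCh38.p14, each covering 250 bases before and 50 after the transcription start. The 3 windows below were chosen after their motifs had been counted. MRPS18A and MRPS18C are shown because these paralogs hold different combinations of the motifs described further on, and MRPL46 because its window reaches toward the start of another member, MRPS11, on the opposite strand. Capitals mark matches to the motifs CCGGAAG (ETS/GABP), GCATGCGC (NRF1), AAGATGGCG (YY1), GGGCGG (SP1/KLF), CCAAT (NF-Y) and CACGTG (E-box) on either strand. The windows lie at chr6:43687742-43688041 (minus strand) for MRPS18A, at chr4:83455808-83456107 (plus strand) for MRPS18C and at chr15:88467339-88467638 (minus strand) for MRPL46.
MRPS18A: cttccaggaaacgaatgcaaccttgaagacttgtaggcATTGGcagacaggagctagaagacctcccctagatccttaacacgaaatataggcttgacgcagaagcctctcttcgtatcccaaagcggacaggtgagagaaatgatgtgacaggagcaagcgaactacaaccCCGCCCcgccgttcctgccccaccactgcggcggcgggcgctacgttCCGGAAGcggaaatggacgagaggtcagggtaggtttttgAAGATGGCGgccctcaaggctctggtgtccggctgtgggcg
MRPS18C: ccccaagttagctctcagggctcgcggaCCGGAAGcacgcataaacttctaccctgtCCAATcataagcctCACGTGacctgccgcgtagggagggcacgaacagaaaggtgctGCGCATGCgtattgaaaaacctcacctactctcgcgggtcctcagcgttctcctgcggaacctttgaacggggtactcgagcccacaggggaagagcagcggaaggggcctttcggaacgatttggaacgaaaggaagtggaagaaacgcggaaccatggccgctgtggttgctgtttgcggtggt
MRPL46: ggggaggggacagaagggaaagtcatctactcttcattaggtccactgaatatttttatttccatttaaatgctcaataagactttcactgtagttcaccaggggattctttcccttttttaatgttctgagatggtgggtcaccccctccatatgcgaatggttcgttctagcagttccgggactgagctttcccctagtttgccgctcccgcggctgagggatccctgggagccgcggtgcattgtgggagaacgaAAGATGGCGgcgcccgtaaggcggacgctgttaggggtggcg

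The MRPS18A window holds an ETS match at position -31 and a YY1 match at position 10, counted from the transcription start, whose first base is position 1. The MRPS18C window holds an ETS match at position -222 and an NRF1 match at position -136. HELQ, a gene on the other strand, has an annotated span that reaches chr4:83455855, inside this window. In the MRPL46 window the single match is a YY1 match at position 9.

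To compare genes of different lengths, each mean normalized count was divided by the length of the gene's MANE Select transcript in kilobases, a quantity named the level below. The median level of the 78 members was 716 per kb (quartiles 430 and 1161). A gene at this median stood above 85.3% of the 18323 genes with a transcript length. Of the members, 77 lay above the median of all these genes and 63 above their upper quartile. The members held 0.349% of the summed mean normalized counts of the table.

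The members were expressed at levels close to each other. A total of 51 of 78 lay within 2-fold of the median, 13 lay more than 2-fold above it and 14 more than 2-fold below it. The upper quartile was 2.70 times the lower, against 8.92 times for all protein-coding genes whose mean normalized count reached 10. The same ratio was 2.65 for the cytosolic ribosomal proteins and 3.35 for the subunits of complex I, so a narrow spread was shared by the other complexes and was not tested as a property of the members. Apart from MRPS24, the mean normalized counts ran from 245 for MRPL53 to 3926 for MRPL15.

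**Figure D1:**
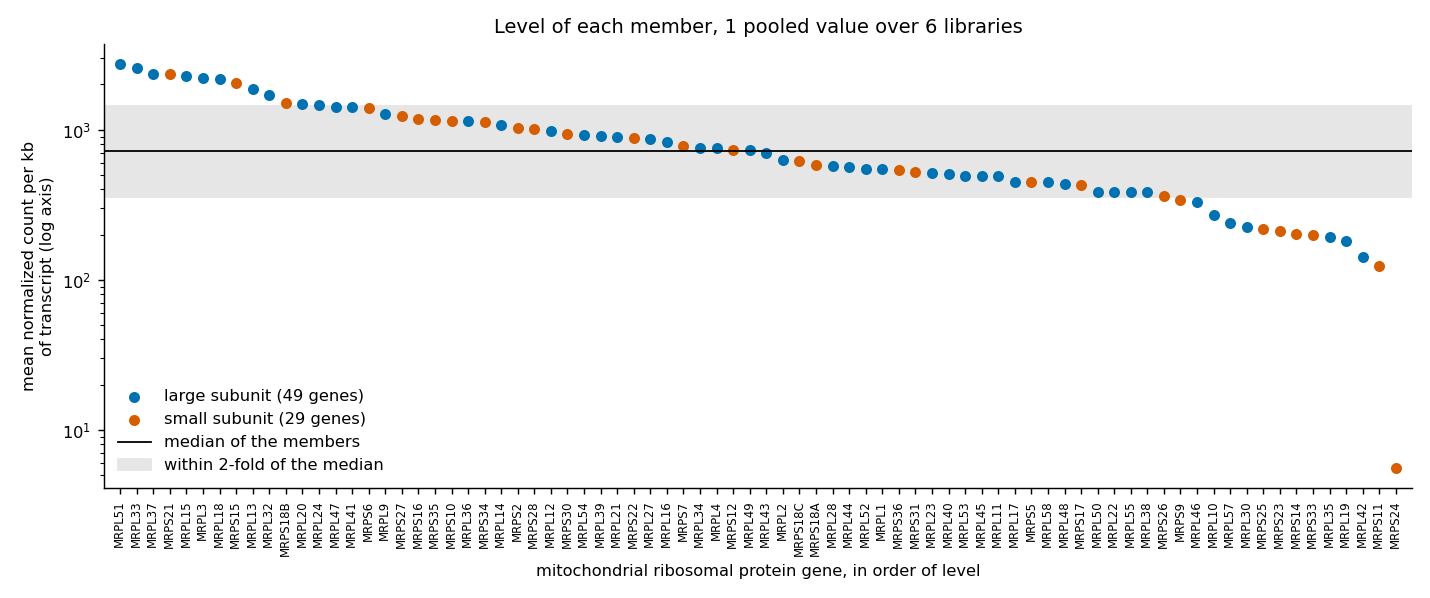
Level of each of the 78 members, as mean normalized count per kb of transcript on a log axis, with the genes in order of level and the 2 subunits in different colours. Each point is a single value pooled over 6 libraries, with no error bar; 51 points lie in the grey band within 2-fold of the median of 716, and MRPS24 stands apart at 5.58.

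The highest level belonged to MRPL51, a mitochondrion-specific protein of the large subunit, at 2731 per kb. Its gene lies on chromosome 12, at chr12:6491886-6493841 on GRCh38, and its transcript of 898 bases is spread over 3 exons. MRPL33, with the shortest coding sequence of all members (195 bases), followed at 2589 per kb. MRPL37 was at 2358 and MRPS21, a small protein of the small subunit with a bacterial counterpart, at 2333 per kb. MRPL15 had the largest mean normalized count of all members, 3926, and a level of 2271 per kb. MRPL3, which reaches toward the peptidyl transferase centre, was at 2217, MRPL18 at 2169 and MRPS15 at 2057 per kb. MRPL13 at 1859.7 and MRPL32 at 1691 per kb completed the highest 10, of which 8 encode proteins of the large subunit. MRPL32 is cleaved by the m-AAA protease after import, a step that precedes its joining the ribosome.

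The other end of the order held MRPL30 at 224 per kb, MRPS25 at 219, MRPS23 at 210.1, MRPS14 at 202, MRPS33 at 198, MRPL35 at 193, MRPL19 at 181, MRPL42 at 142, MRPS11 at 123 and MRPS24 at 5.58 per kb. Long transcripts prevailed among these genes. Of the 10, 9 have a reference transcript longer than 2000 bases, a length that 18 of the 78 members reach. Their median transcript length was 4322.5 bases, against 1027.5 bases for the highest 10. Over the 78 members the level correlated with transcript length at Spearman's rho = -0.42, a description across genes in which length also enters the level as its divisor.

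MRPL42 shows how far the divisor matters. Its reference transcript on chromosome 12 (chr12:93467514-93516214) has 15557 bases, of which 426 code for protein and the remaining 15131 are untranslated. With a mean normalized count of 2213 it was the 10th most counted member. It was 76th of 78 per kb of transcript and 5th per kb of coding length, at 5195. MRPS33 (198 and 2616), MRPS25 (219 and 1930), MRPS23 (210.1 and 2067) and MRPL30 (224 and 2061 per kb of transcript and per kb of coding length) moved in the same way. The low order of these 5 genes therefore holds where the divisor includes their long annotated untranslated parts, and which 3' ends BT-549 cells used was not tested. The coding scale divides the same whole count by coding bases only, so any reads from untranslated parts raise it.

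**Figure D2:**
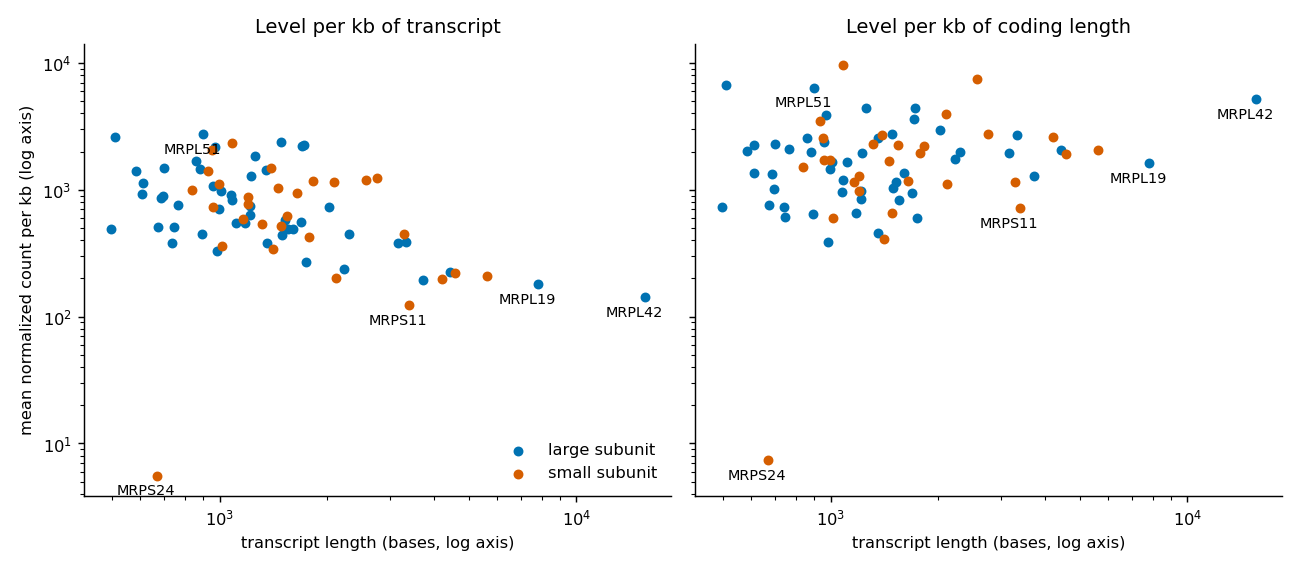
Level of each member against the length of its reference transcript, with both axes on log scales; the left panel divides by the transcript and the right panel by the coding length, and colours give the subunit. On the left the longest transcripts lie lowest among the members other than MRPS24; on the right MRPL42 rises from 142 to 5195 per kb while MRPS24 stays lowest.

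Some positions did not depend on the divisor. MRPL51, MRPS21, MRPL15, MRPL3 and MRPL18 were among the highest 10 by all 3 length scales, namely the reference transcript, the union of annotated exons and the coding length. MRPL55, MRPL38, MRPL46, MRPL10, MRPS11 and MRPS24 were among the lowest 20 by all 3. Of the bases of their transcripts, MRPL38 shared 94.3%, MRPS24 90.9% and MRPL46 73.4% with exons of another gene on the same strand. The counts of these genes are uncertain on any length scale. MRPL46 was at 327 per kb of transcript and 386 per kb of coding length, and MRPL38 at 381 and 454.

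MRPS24, the counterpart of bacterial ribosomal protein S3 at the entry of the mRNA channel, had a mean normalized count of 3.72. The next lowest count of a member, that of MRPL53, was 245. The level of MRPS24 was 5.58 per kb, at the 29.2 percentile of the genes with a transcript length, and it was last by each of the 3 length scales. The gene lies at chr7:43866558-43869893, and 90.9% of the bases of its reference transcript lie in exons that the annotation also assigns, on the same strand, to the readthrough gene URGCP-MRPS24. The table has a row for URGCP, with a mean of 1408, and none for URGCP-MRPS24. In all, 4 members shared at least 90% of their transcript with another gene on the same strand (5.13%, against 1.30% of protein-coding genes). The other 3 were MRPL53 (99.2%, level 494 per kb), MRPS5 (97.1%, 446 per kb) and MRPL38 (94.3%, 381 per kb). How the gene counting treated shared exons is not stated in the sources used here, and its part in the value of MRPS24 was not tested. The count of MRPS24, like those of the other 3, is therefore uncertain. Counts of members with smaller shares, among them MRPL46 (73.4%) and MRPL12 (69.5%), are uncertain in the same way.

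The subunits had similar levels. The median was 700.1 per kb for the 49 large subunit genes and 735 per kb for the 29 small subunit genes, a ratio of 0.953. By another length scale, without length scaling, by means, or with the genes assigned to subunits by structure, this ratio lay between 0.88 and 1.15, on both sides of 1. Of the highest 20 members 13 belonged to the large subunit, and of the lowest 20 it held 11.

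The members were split by the number in their symbols. MRPL1 to MRPL36, MRPS2 to MRPS21 and MRPS24 were taken to have a bacterial counterpart. The others, apart from MRPS36, were taken to be mitochondrion-specific. Single genes were not checked and can be misplaced by this split. The first class had a median of 772 per kb (45 genes), and the second a median of 534 per kb (32 genes). This ratio of 1.45 was 1.32 with coding length, 1.19 without length scaling and 1.06 when the union of annotated exons was the divisor. The first class was higher in each case, by a margin that depended on the divisor. MRPS36 belongs to neither class, because its product is a subunit of the 2-oxoglutarate dehydrogenase complex despite its symbol, and its level was 535 per kb.

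In the large subunit, the genes around the peptidyl transferase centre and the exit tunnel had a median of 789 per kb over 8 genes. They ran from 383 for MRPL22, at the tunnel wall, to 2217 for MRPL3. MRPL2 was at 630.2, MRPL4 at 751, MRPL16 at 828, MRPL23 at 513, MRPL24 at 1466 and MRPL27 at 861 per kb. The stalk that recruits translation factors is built from MRPL10 at 269, MRPL11 at 490.2 and MRPL12 at 982 per kb. MRPL12, which is present in several copies in each ribosome, had 3.66 times the level of MRPL10, the protein that holds it. This ratio was 5.79 with the union of annotated exons and 2.78 with coding length. Exons of another gene on the same strand share 69.5% of the MRPL12 transcript, so its count is uncertain. MRPL45, which attaches the ribosome to the inner membrane, was at 492 per kb, and the RNase III-like protein MRPL44 at 560.3 per kb. The central protuberance genes ran from 327 for MRPL46 to 507 for MRPL40, with MRPL38 at 381 and MRPL48 at 438 per kb.

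In the small subunit, the genes along the decoding centre and the mRNA path had a median of 754 per kb. MRPS12, the counterpart of the bacterial protein at which streptomycin resistance arises, was at 735, MRPS2 at 1032, MRPS7 at 772 and MRPS5 at 446 per kb. The platform and head genes ran from 123 for MRPS11 and 202 for MRPS14 to 342 for MRPS9 and 2057 for MRPS15. MRPS27, a pentatricopeptide repeat protein, was at 1237 per kb. A list of 7 other genes held small subunit symbols that the split by number placed in the mitochondrion-specific class. In it MRPS23 was lowest at 210.1 and MRPS35 highest at 1167 per kb. MRPS22 was at 879, MRPS26 at 361, MRPS28 at 1002, MRPS31 at 519 and MRPS34 at 1119 per kb. MRPS33 (198), MRPS25 (219) and MRPS30 (938 per kb) fall in the same class by symbol and were not on that list. A symbol alone does not show in which subunit the protein sits. These role groups hold 1 to 8 genes each, and no order among them was tested.

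MRPS18A, MRPS18B and MRPS18C are paralogs of a single bacterial small subunit protein that occupy different places in the mitochondrial ribosome, and the product of MRPS18A is built into the large subunit. MRPS18B was the highest at 1495 per kb, with MRPS18C at 618 and MRPS18A at 584 per kb. The highest was 2.56 times the lowest. By coding length MRPS18B (2700.2) and MRPS18C (2248 per kb) lay closer, with MRPS18A at 1154 per kb. With the union of annotated exons MRPS18C was the lowest, at 197 per kb against 1189 for MRPS18B, a ratio of 6.04.

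Of the proteins of this ribosome that carry other symbols, 5 were looked up. The GTP-binding protein DAP3 was at 2410.3 and AURKAIP1 at 2275 per kb, both in the range of the highest 10 members. CHCHD1 was at 740, GADD45GIP1 at 342 and the pentatricopeptide protein PTCD3 at 271 per kb. The translation factors of the organelle had a median of 400.5 per kb over 11 genes, and the members' median was 1.79 times theirs. Their transcripts are longer, with a median of 2746 against 1242 bases, and without length scaling the order turned, with median mean normalized counts of 1016 for the translation factors and 938 for the members. The elongation factor TUFM was the highest of them at 1936 and the deformylase PDF the lowest at 4.37 per kb. The genes for ribosome assembly and rRNA modification had a median of 222 per kb over 19 genes, from 44.1 for the methyltransferase MRM1 to 926 for MTERF3, and the members' median was 3.23 times theirs. By mean normalized count it was 1.35 times theirs (938 against 694).

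Complex I subunits, whose mitochondrially encoded partners are made on this ribosome, were taken by symbol (NDUFA, NDUFB, NDUFC, NDUFS or NDUFV and a number). The product of each gene was not checked. This list had a median of 1233 per kb over 37 genes, 1.72 times that of the members and 1.22 times by mean normalized count. The cytosolic ribosomal protein genes had a median of 9126 per kb over 82 genes, 12.8 times that of the members. Their summed mean normalized counts were 9.38 times those of the members. Both are differences between lists of genes in pooled values and carry no replicate error.

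**Figure D3:**
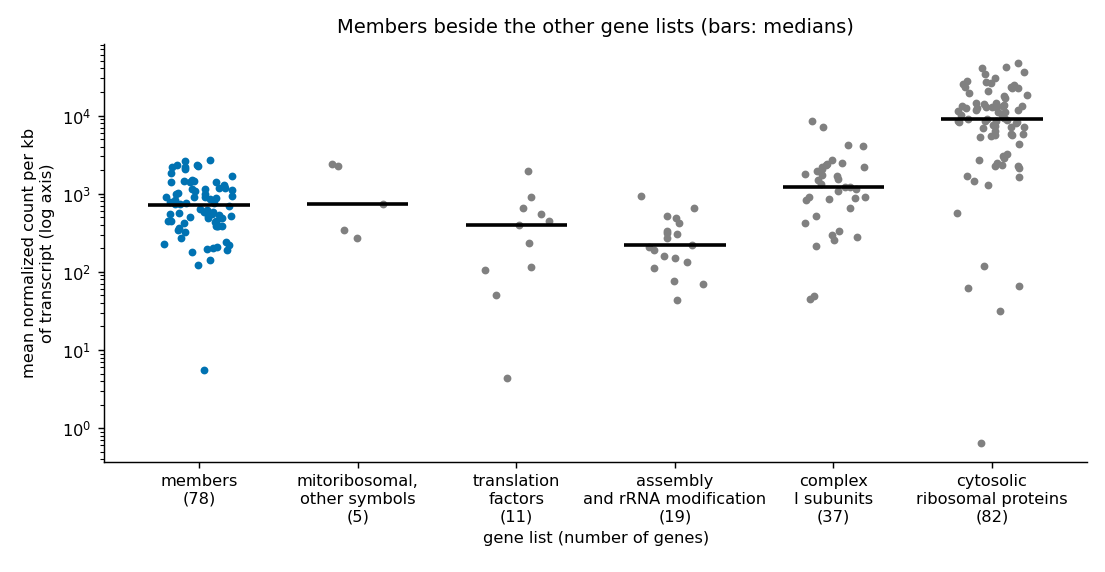
Level of each gene on a log axis, as mean normalized count per kb of transcript, for the members (blue) and 5 other gene lists (grey), with bars at the medians and numbers of genes in parentheses. The median rises from 222 for assembly factors through 400.5 for translation factors and 716 for the members to 1233 for complex I and 9126 for cytosolic ribosomal proteins; by mean normalized count, translation factors (1016) exceed the members (938).

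The rRNAs to which these proteins bind also had rows. RNR1 and RNR2 are the symbols that RefSeq gives to the 12S and 16S rRNAs of the mitochondrial ribosome. RNR2 had the largest mean normalized count of the whole table, 231159, and RNR1 ranked 119th with 20679. Divided by their lengths of 1559 and 954 bases, RNR2 was at 148274 and RNR1 at 21676 per kb, 207 and 30.3 times the median member, and they differed from each other by 6.84-fold. The libraries were selected for poly(A), so these values are not comparable with messages and do not measure the amount of rRNA. Nuclear copies of RNR2 are near-identical to it, which makes its count uncertain as well. These rows were looked up after the table had been examined.

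The members were scattered over 21 chromosomes. Chromosomes 1, 2 and 17 held 8 each, chromosome 11 held 7 and chromosome 6 held 6. Their genes were short. The median transcript had 1242 bases, the median coding length was 585 bases and the median number of exons was 5, against 3273 bases, 1410 bases and 9 exons over the protein-coding genes of the table. Median GC content was 48.2% for members and 48.8% for protein-coding genes. The annotation holds 79 pseudogenes named for 36 of the members, with up to 8 for MRPS21. The counts of such members can share reads with these copies and are uncertain to that extent.

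Many members began close to another gene that is transcribed in the opposite direction. The start of 28 members (35.9%) lay within 1000 bases of the start of a protein-coding gene on the other strand, against 11.7% of the protein-coding genes of the table. With any annotated gene as neighbour the shares were 42.3% and 27.6%. The median distance between these starts was 192 bases. These made 27 distinct pairs. In 26 of the 27 the genes pointed away from each other, and MRPS34 and EME2 overlapped at their starts. Among the neighbours were genes of the same organelle, such as SARS2, the mitochondrial seryl-tRNA synthetase, at 181 bases from MRPS12, TWNK, the mitochondrial DNA helicase, at 46 bases from MRPL43, and NDUFB5, a subunit of complex I, at 156 bases from MRPL47. Others were genes of unrelated function, such as the chaperonin gene TCP1 beside MRPL18 and the kinetochore gene SKA3 beside MRPL57.

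Of the 28, 26 had a neighbour with a level in the table, and these formed 25 distinct pairs. Member and neighbour levels correlated at Spearman's rho = -0.10 over the 26, a description across genes of the same pooled libraries. The member had the higher level in 21 of 26, and the higher mean normalized count in 18 of 26. A median member stood above 85.3% of all genes with a transcript length. The 21 of 26 is therefore not read as a property of these pairs. The order turned without length scaling for MRPL51, MRPL14, MRPL43 and MRPL40, for MRPL30 and for the pair of MRPL46 and MRPS11. MRPS12 was at 9.18 times SARS2 (735 against 80.0 per kb), and at 4.58 times by mean normalized count. MRPL37 was at 2358 against 26.1 for CYB5RL, and MRPL10 at 269 against 5.91 for LRRC46. The neighbour was higher beside MRPL18, where TCP1 had 2.81 times its level and 6.82 times its count, and beside MRPL49, where FAU, which encodes a cytosolic ribosomal protein, had 10.0 times its level and 2.50 times its count. SKA3 beside MRPL57 was higher on both scales. MITD1 was higher than MRPL30 per kb (519 against 224) and lower by mean normalized count (488 against 996). The libraries were stranded, so that reads of a divergent pair can be assigned to their gene where the counting used strand, which is not stated in the sources used here.

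The single pair in which both genes are members is that of MRPL46 and MRPS11 on chromosome 15. The starts of their reference transcripts lie 320 bases apart, while other annotated transcripts bring the outer ends of the genes to within 63 bases. The promoter window of MRPL46 printed above covers 250 of these 320 bases. MRPL46 was at 327 per kb and MRPS11 at 123 per kb of transcript, a ratio of 2.66. Per kb of coding length the order turned, with MRPL46 at 386 and MRPS11 at 717. Both were in the lower part of the order by all 3 length scales. The count of MRPL46 is uncertain, because 73.4% of its transcript lies in exons shared on the same strand.

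**Figure D4:**
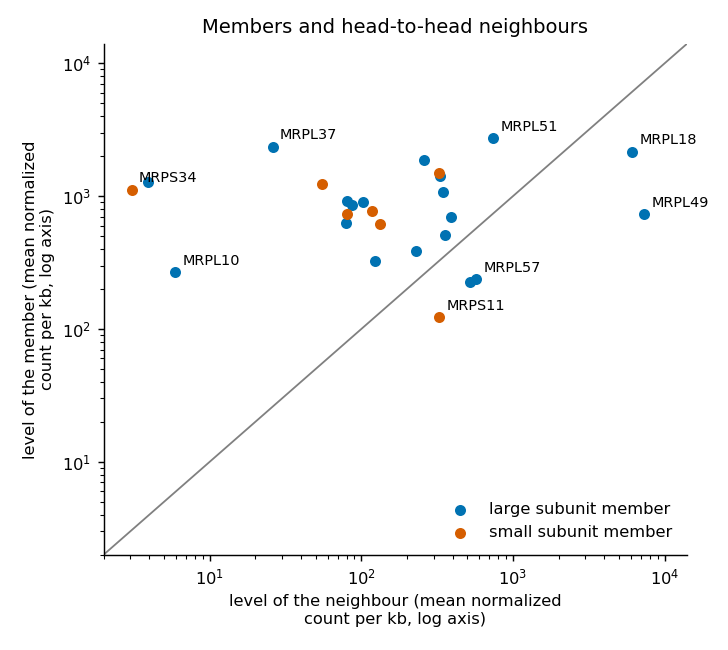
Level of each of 26 members against that of its head-to-head neighbour, both as mean normalized count per kb of transcript on log axes, with the line of equal levels and colours for the subunit. Points above the line (21 of 26) are members that exceeded their neighbour; MRPL18 and MRPL49 lie farthest to the right, beside TCP1 and FAU, and the pair of MRPL46 and MRPS11 appears from both sides.

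Motifs were counted in the 69 promoter windows by exact match on both strands, beside 15345 windows of protein-coding genes of the same length. The ETS motif CCGGAAG, the site of GABP and related factors, was in 29 member windows (42.0%) and in 14.4% of the protein-coding windows. The YY1 motif AAGATGGCG was in 13 (18.8%) and in 2.80%. This motif contains the letters ATG, and matches that span a translation start were not set apart. The NRF1 motif GCATGCGC was in 6 (8.70%) and in 4.25%. GABP, NRF1 and YY1 are textbook regulators of nuclear genes for mitochondrial proteins. At least 1 of these 3 motifs was in 39 member windows (56.5%), against 19.7% of the protein-coding windows. A window can also cover the promoter of a head-to-head neighbour, which 35.9% of members and 11.7% of protein-coding genes had. The windows were not split by this, and the protein-coding windows were not matched to the members by level. The ETS windows included the 2 highest members, MRPL51 and MRPL33, and also MRPL30, MRPS23 and MRPS33 among the lowest 10. MRPL52 was the member with all 3 motifs, and MRPS18A, MRPS10 and MRPL38 were among those with ETS and YY1 together. The windows of MRPL42 and MRPS24 held YY1.

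The other motifs were not more frequent in the member windows by a comparable margin. The SP1/KLF motif GGGCGG was in 60.9% of the member windows and 59.2% of the protein-coding windows, the E-box CACGTG in 8.70% and 8.89%, and the NF-Y motif CCAAT in 29.0% and 36.6%. The TATA box TATAAA was in 2 member windows (2.90%), those of MRPS15 and MRPL54, and in 9.63% of the protein-coding windows. The cAMP response motif TGACGTCA and the ZNF143 motif ACTACAATT were in 0 member windows, and in 2.64% and 0.482% of the protein-coding windows. The GC content of the windows was 60.3% for members and 63.0% for protein-coding genes (medians). Members with at least 1 of the ETS, NRF1 and YY1 motifs had a median level of 618 per kb, and the 30 members with none of them 753 per kb. A match is a run of letters and does not show that a factor binds there, and none of these shares was tested.

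**Figure D5:**
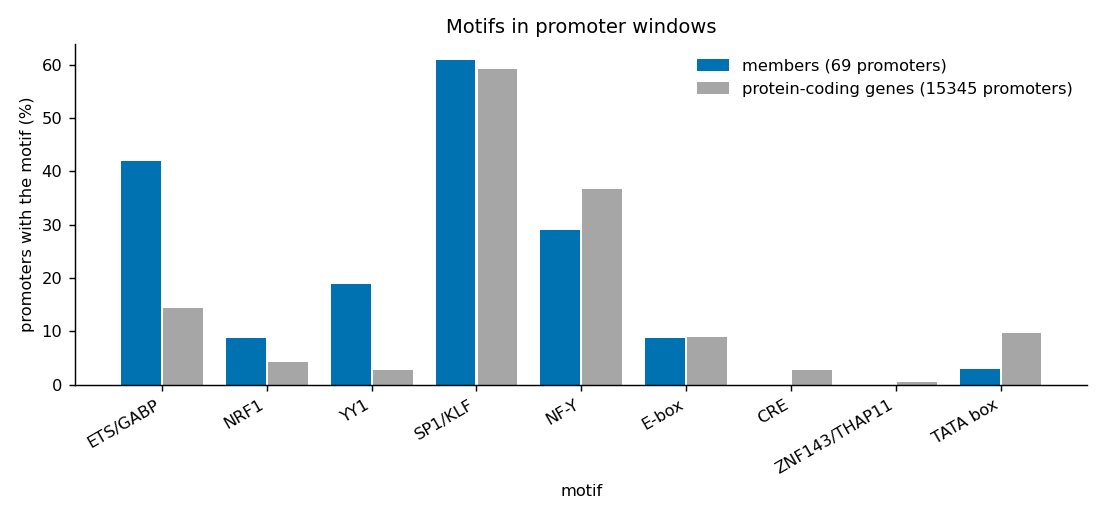
Share of promoter windows (percent, from 0) that hold each of 9 motifs on either strand, for 69 members (blue) and 15345 protein-coding genes (grey). The ETS motif (42.0% against 14.4%) and the YY1 motif (18.8% against 2.80%) show the widest gaps toward the members, and the bars of SP1/KLF and of the E-box are nearly level.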

How the data were processed

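Total RNA from triplicate cultures of each group was sequenced from stranded poly(A) libraries. The authors aligned reads to GRCh38 with STAR and normalized gene counts with DESeq2, per the labels and the study's methods. The sources name different RNA extraction kits, and the gene counter is not given in the sources used here. The deposited mean normalized count, a signal value, was the only measurement used. The other 5 columns hold the authors' own comparison of DOX with vehicle (log2 fold change, its standard error, statistic, p-value and adjusted p-value) and were not used. Depth per library is unknown from these values, so neither counting intervals nor SDs could be given.

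Symbols were matched to GENCODE 44 (17729 directly, 594 through RefSeq synonyms, 1469 not matched). A level is the mean normalized count per kb of the MANE Select transcript. Where RefSeq gives several promoters for a symbol, the first listed was used. Members and lists were chosen with earlier results of these data known. Named genes are the 10 highest and 10 lowest levels, MRPS18A to C, MRPS36 and fixed role groups; other members were named after their values were seen. The planned list of other symbols was cut to 5, since its ICT1 and MRP63 are the members MRPL58 and MRPL57. The planned protein features were not analysed here. The code was tested on simulated data. Python 3.11.15, numpy 2.4.6, pandas 2.3.3, scipy 1.17.1 and matplotlib 3.10.9 were used.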

Additional observations from a re-analysis of the deposited data

How the results depend on the processing

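The median level of the members, 716 per kb with reference transcripts, was 362 per kb with the union of annotated exons and 1698 per kb with coding length. The ratio of bacterial-type to mitochondrion-specific medians fell from 1.45 to 1.06 with the union of exons. It was 1.19 without length scaling and 1.32 with coding length. The share of the members was 0.349% of summed counts and 0.685% of summed levels per kb. Their median percentile, 85.3, was 79.8 among genes whose mean normalized count reached 10, which leaves 77 members, and 71.0 without length scaling. The cause of each shift is the divisor or the set of genes ranked. The ratio of large to small subunit medians ranged from 0.88 to 1.15. The share of members with a head-to-head neighbour was lowest within 500 bases, at 28.2% against 9.57% of protein-coding genes. It was highest with any annotated gene as neighbour, at 42.3% against 27.6%. Without length scaling the members' median was 0.924 times that of the translation factors, against 1.79 times per kb. Of 51 named members, 31 had a level more than 1.5-fold lower with the union of exons, and 36 one more than 1.5-fold higher with coding length. The coding length, the unscaled comparison with other lists and with neighbours, a transcript length shortened by 200 bases and the measure of shared exons were chosen after seeing the data. With 200 bases removed, 1 of the 51 moved by more than 1.5-fold. No paired analysis was possible because the deposited values used here pool all 6 libraries, and for the same reason leaving out each replicate in turn was not run. Without counts per library, depth limits are unknown, and the spread of a level between cultures cannot be given.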
